A study of Macaca fascicularis with 21 samples.

Results

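The genes described here carry a cell through division. The list names 42 mitosis genes of the cynomolgus monkey (Macaca fascicularis), and 33 of them were present under their own symbols among the 30792 genes of the deposited count table. The cells came from 21 blastocysts, freed of the zona pellucida, that were grown singly in a dish on Matrigel, a basement membrane gel, with serum raised stepwise, and were collected at day 11 (2 embryos), 12 (5), 13 (3), 14 (4), 16 (4) or 17 (3). For 5 embryos the day is labelled as a culture stage and for 16 as a developmental stage, and the sources used here do not say whether both count from the same start. There was no treatment and no genotype contrast, so the comparisons are between cell families and between days. The implantation site was dissected and part of the extraembryonic cells removed before single cells were picked by hand, so the number of cells in a family is not its size in the embryo. The cultures had no maternal tissue, and no embryo grown in the uterus is part of these data.

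Entry into mitosis is driven by the kinase CDK1 bound to cyclin A or B and released from inhibition by phosphatases of the CDC25 family. Kinetochores, the protein plates built on centromeres, then attach chromosomes to the spindle, and the spindle checkpoint (BUB1, BUB1B, MAD2L1, TTK) holds back the anaphase-promoting complex until every chromosome is attached. Most of these genes are transcribed in late S phase, G2 and mitosis, so that a tissue with many dividing cells holds many transcripts of all of them. In the embryo around implantation the epiblast divides fast, whereas parts of the trophoblast leave the cell cycle.

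The 1453 cells carry 12 annotations by the authors, joined here into 7 families. EPI (304 cells) holds the earlier and later epiblast, Gast (83) the gastrulating cells, AM (82) the amnion, PGC (18) the early germ cells, VE/YE (101) the visceral and yolk-sac endoderm, EXMC (485) the extraembryonic mesenchyme, and TE (380) the trophectoderm and its derivatives. A cell held 3376 to 483669 counts (median 61090) and an embryo 2540816 to 11857191. The families matched their defining markers: 6 of 6 trophoblast and 6 of 6 endoderm markers, 5 of 6 epiblast (not GDF3), 5 of 6 mesenchyme (not HAND1), 3 of 4 amnion (not TFAP2A) and 3 of 4 gastrulation markers (not EOMES) were highest in their own family. The 3 day 17 embryos stood apart in TE. The summed level of the 6 trophoblast markers in their TE cells was 608 to 1094 CPM (counts scaled to a common total per sum), against 6168 to 22197 in the 13 embryos of days 11 to 14, and 5 of the 6 markers were lower, with CCR7 at a median of 0. In the same TE cells the 6 mesenchyme markers were all higher at day 17, with a sum of 409 to 1552 CPM (median 1534) against 44.7 to 731 (median 94.8). The TE comparisons and the TE cell values below are therefore also given without day 17.

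Of the 9 listed genes without a row of their own (CDC20, CDC25C, BUB3, AURKA, PLK1, KIF23, SMC4, NCAPG and NCAPH), each was found under a numbered locus identifier through the RefSeq gene table, and their values are given apart from those of the 33. CDK1 itself is split. The row that bears its symbol held 31 counts in 28 cells (1.93%), whereas the identifier that RefSeq pairs with CDK1 held 22613 counts in 1103 cells (75.9%). The row named CDK1 was too low to be tested in any comparison, so CDK1 is read below from the identifier, the tenth of the rows set apart. The best covered members were TOP2A, the topoisomerase that untangles sister DNA, with 72164 counts in 1302 cells (89.6%), and CENPF, a large protein of the outer kinetochore, found in 88.6% of cells. INCENP, the scaffold of the chromosomal passenger complex, held 669 counts in 12.0% of cells, CENPA, the centromeric histone, 633 counts in 14.3%, and CDC25B, a phosphatase that activates CDK1, 2515 counts in 33%. A difference in INCENP or CENPA may not be detectable at this depth.

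EPI cells had counts for most members, and the number per cell was lower in AM, PGC, TE, EXMC and VE/YE. To compare cells at 1 depth, each cell was thinned to 20000 counts, which 1153 cells reached and 300 did not. The median number of the 33 members with a count was 22 in EPI, 21 in Gast, 17.5 in AM, 17 in TE, 16 in PGC, 15 in EXMC and 11 in VE/YE. Cells with fewer than 10 members were rare in EPI, 4 of 247 (1.62%), and made up 69 of 316 TE cells (21.8%), 136 of 382 EXMC cells (35.6%) and 28 of 69 VE/YE cells (40.6%). Without day 17 the TE median was again 17 and 60 of 298 TE cells (20.1%) were under 10. The limit of 10 was chosen after the values were seen, and 125 cells lie at 8 to 11 members. By embryo, the median lay between 17 and 24 in EPI (13 embryos), 6 and 22 in TE (15), 5 and 26 in EXMC (19) and 7 and 19 in VE/YE (7). The embryos of the 4 families therefore overlapped, and the EPI embryos spread least.

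Within AM the annotations differed. E-AM cells, found at days 11 to 14, had a median of 20.5 members and L-AM1 cells 19. L-AM2 cells, found from day 13 to day 17, had 8, with 13 of 21 (61.9%) under 10. The earlier and later epiblast had medians of 22 and 20. These are descriptions over cells, and cells of 1 embryo are not replicates.

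In EXMC the number of members per cell was lower at the last days. The medians were 22, 18, 20.5 and 20 at days 11, 12, 13 and 14, and 11 and 9 at days 16 and 17. The share of cells under 10 members went from 5% at day 11 through 12.5%, 23.5% and 24.2% to 46.4% and 52.3%. Over all genes and without thinning, the median number with a count per EXMC cell was 6717, 5898, 5994 and 6540.5 at days 11 to 14. It was 4984 at day 16 and 6466 at day 17, and its part in the member numbers was not tested. The 7 embryos of days 16 and 17 had medians of 5, 12.5, 14.5, 8.5, 10, 9.5 and 6. Of the 12 embryos of days 11 to 14, 11 had medians of 15.5 to 26, and day 13 replicate 2 had 9, inside the later range. EPI medians by embryo were 20.5 to 24 at days 11 to 14 and 17 to 22 at days 16 and 17, so its days overlapped.

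**Figure D1:**
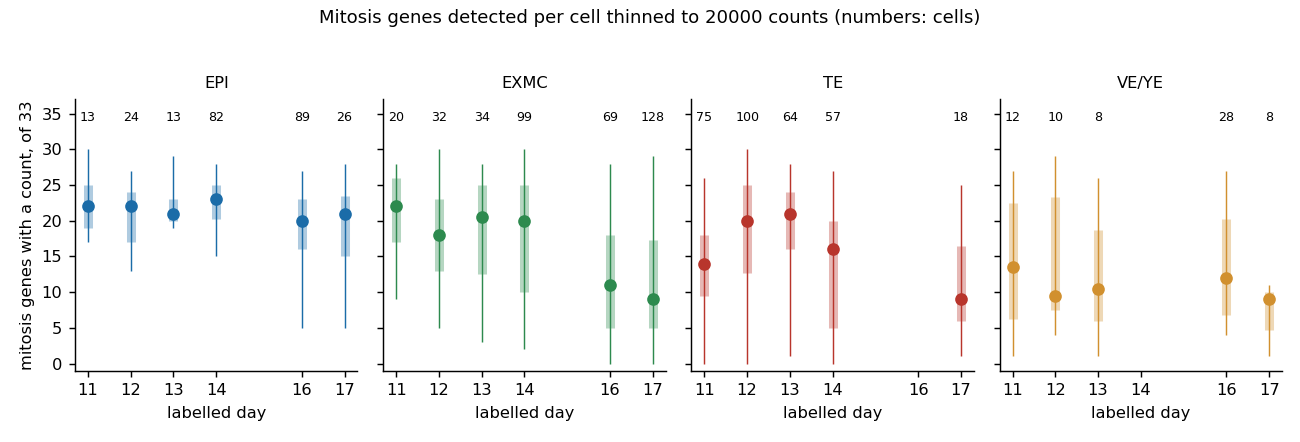
Number of the 33 members with a count per cell after thinning to 20000 counts (vertical axis) against day (horizontal axis) in EPI, EXMC, TE and VE/YE; points are medians, thick bars quartiles and thin lines the range, with the number of cells. EPI medians lie between 20 and 23 at all days, whereas EXMC medians go from 22 at day 11 to 9 at day 17.

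MKI67, the Ki-67 protein that coats mitotic chromosomes and serves as a marker of proliferation, had a count in 77.3% of thinned EPI cells, 69.3% of TE cells and 58.9% of EXMC cells (88.2%, 79.7% and 66.6% without thinning). For TOP2A the thinned shares were 98.4% in EPI, 73.7% in TE, 76.7% in EXMC and 66.7% in VE/YE. CCNB1, the cyclin B that binds CDK1 at mitotic entry, did not follow that order: its share was 89.9% in TE, 87.9% in EPI, 66.0% in EXMC and 55.1% in VE/YE. Without day 17 the TE shares were 71.1% for MKI67, 74.2% for TOP2A and 91.6% for CCNB1.

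To compare families over embryos, the counts of each family's cells were summed per embryo (at least 5 cells), and each family was tested against EPI of the same embryos with edgeR's quasi-likelihood test, with Benjamini-Hochberg adjustment over all genes tested. A member is called at an adjusted p under 0.05, differences are log2 values of family over EPI with their standard error, and all 5 comparisons share the EPI sums. In such a sum, fewer dividing cells and less RNA per dividing cell cannot be told apart.

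TE held less RNA of most mitosis genes than EPI. In 10 embryos, 23 of the 32 members tested were lower and 1, ANLN, was higher. Of all genes tested 22.7% were lower and 20.9% higher. The median difference of the members was -0.96, against -0.06 for all genes. Of the 10 identifier rows 7 were lower. CDK1, read from its identifier, was not called (-0.44, adjusted p = 0.238). The counts by role include the identifier rows. Lower were 6 of 7 genes of the anaphase-promoting complex and checkpoint, 5 of 6 kinetochore genes and 4 of 6 mitotic kinases and passenger proteins. So were 3 of 5 chromosome structure genes and 3 of the 6 cyclins, CDK1 and phosphatases tested. Of 12 spindle, motor and cytokinesis genes, a group that also holds ANLN, 9 were lower. Without the day 17 embryos 19 members were lower and 1 was higher. Of the 6 cyclins, CDK1 and phosphatases 1 was then lower, where 21.4% of all genes were. Of the kinases and passenger proteins 3 of 6 were lower, and of the spindle, motor and cytokinesis genes 8 of 12. The other roles kept their counts.

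TOP2A had the largest difference of the members tested in TE. Its TE sums ranged from 67.9 to 528 CPM (median 218) and the EPI sums of the same embryos from 629 to 1074 (median 756). Every TE sum was below every EPI sum, with a difference of -2.09 ± 0.31 (adjusted p = 1.19e-04). NUSAP1, which binds spindle microtubules near chromosomes, showed the same separation. Its TE sums were 12.4 to 231 CPM (median 101) and its EPI sums 242 to 522 (median 322), a difference of -1.67 ± 0.39 (adjusted p = 0.00358).

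The checkpoint and its targets were lower as well. BUB1B, a checkpoint protein that binds CDC20, had 2.26 to 63.3 CPM in TE (median 14.7) and 10.0 to 105 in EPI (median 55.1), a difference of -1.67 ± 0.40 (adjusted p = 0.00245). CDC20, the activator of the anaphase-promoting complex and read from its identifier, had 38.5 to 210 CPM in TE (median 86.7) and 239 to 429 in EPI (median 323). CDC20 did not overlap between the families and differed by -1.75 ± 0.23 (adjusted p = 7.04e-06). UBE2C, the ubiquitin-conjugating enzyme of that complex, had 6.79 to 116 CPM in TE (median 37.8) and 26.8 to 282 in EPI (median 112), a difference of -1.66 ± 0.34 (adjusted p = 6.32e-04). UBE2C and BUB1B were lower in TE in 10 of 10 embryos, although their ranges overlapped.

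Motor and cytokinesis genes followed. HMMR, a spindle-binding protein, had 9.77 to 74.8 CPM in TE (median 28.3) and 44.3 to 131 in EPI (median 86.0), a difference of -1.55 ± 0.30 (adjusted p = 4.50e-04). KIF20A, a kinesin of the central spindle, had a median of 13.0 CPM in TE (1.51 to 35.9) and 41.4 in EPI (5.71 to 98.3), a difference of -1.50 ± 0.37 (adjusted p = 0.00334). KIF2C, a kinesin that takes microtubule ends apart, had a median of 24.1 CPM in TE (3.76 to 64.8) and 59.4 in EPI (15.7 to 124). KIF2C differed by -1.43 ± 0.30 (adjusted p = 7.47e-04) and was lower in 10 of 10 embryos, KIF20A in 9 of 10. ECT2, which switches on RhoA at the plane of division, had 9.03 to 69.6 CPM in TE (median 43.3) and 52.8 to 172 in EPI (median 91.1), a difference of -1.41 ± 0.25 (adjusted p = 2.05e-04). Its ranges overlapped, and it too was lower in 10 of 10 embryos.

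ANLN, anillin, the scaffold of the contractile ring that closes at cytokinesis, was the exception. Its TE sums were 26.4 to 151 CPM (median 88.7) and its EPI sums 20.7 to 82.1 (median 34.8). It was higher in TE in 9 of 10 embryos with overlapping ranges, by 0.93 ± 0.32 (adjusted p = 0.0239). That call was lost without day 11 replicate 1, day 11 replicate 2 or day 14 replicate 2.

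The marker of proliferation and cyclin B did not pass the test in TE. MKI67 had 30.5 to 301 CPM in TE (median 123) and 67.0 to 242 in EPI (median 132), a difference of -0.10 (adjusted p = 0.818). CCNB1 had 78.3 to 457 CPM in TE (median 309) and 142 to 312 in EPI (median 234), a difference of 0.08 (adjusted p = 0.826). Both ranges overlapped almost wholly, while TOP2A of the same cells was separated.

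EXMC also held less RNA of several mitosis genes than EPI. In 13 embryos 13 of 32 members were lower and 1, CDC25B, was higher, where 15.5% of all genes tested were lower and 14.2% higher. The median difference was -0.55, against -0.08 for all genes. The counts by role again include the identifier rows. Lower were 4 of 6 kinetochore genes, 5 of 12 spindle, motor and cytokinesis genes and 3 of 7 checkpoint genes. So were 2 of 5 chromosome structure genes, 2 of 6 cyclins, CDK1 and phosphatases, and 1 of 6 kinases and passenger proteins. The size of the count depended on single embryos: it was 6 without day 12 replicate 2, 7 without day 13 replicate 2, day 17 replicate 1 or day 17 replicate 2, and 8 without day 11 replicate 1 or day 12 replicate 1. The calls of TOP2A, NUSAP1, ECT2, CENPF, HMMR, CCNB1 and CDC25B, and of the identifier rows CDC20, CDC25C, KIF23 and NCAPH, held without any 1 embryo. Without day 17, 7 of 32 members (21.9%) were lower and 1 was higher, where 17.3% of all genes were lower and 13.3% higher. The median difference was then -0.52, against -0.11 for all genes.

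TOP2A had 161 to 1687 CPM in EXMC (median 381) and 668 to 2342 in EPI of the same embryos (median 792). It was lower in EXMC in 13 of 13 embryos although the ranges overlapped, by -1.19 ± 0.18 (adjusted p = 7.88e-05). NUSAP1 was also lower in every embryo, with medians of 179 CPM (68.7 to 363) and 344 (242 to 587), a difference of -1.06 ± 0.17 (adjusted p = 3.01e-05). CCNB1, which did not pass in TE, did so here, and whether it differed between EXMC and TE was not tested. Its EXMC sums were 58.0 to 272 CPM (median 94.2) and its EPI sums 73.9 to 312 (median 210), a difference of -0.80 ± 0.17 (adjusted p = 8.79e-04), lower in 12 of 13 embryos. MKI67 differed by 0.03 (adjusted p = 0.946), and CDK1, read from its identifier, by 0.02 (adjusted p = 0.959).

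ECT2 had a median of 49.8 CPM in EXMC (24.3 to 96.6) and 99.7 in EPI (52.8 to 172), a difference of -1.10 ± 0.21 (adjusted p = 1.85e-04). HMMR had medians of 48.2 CPM (18.4 to 159) and 101 (44.3 to 143), a difference of -0.90 ± 0.25 (adjusted p = 0.00745). CENPF had medians of 308 CPM (93.0 to 803) and 703 (263 to 1243), a difference of -0.85 ± 0.20 (adjusted p = 0.00378). ECT2, HMMR and CENPF were each lower in 12 of 13 embryos with overlapping ranges. NDC80, the microtubule-binding arm of the kinetochore (-0.79 ± 0.30, adjusted p = 0.0451), and TACC3, a spindle crosslinker (-0.78 ± 0.28, adjusted p = 0.0378), were called with all embryos but lost the call in 10 and 8 of the 13 fits without 1 embryo. The remaining called members, AURKB, SPC25, UBE2C, BUB1 and CENPE, lay between -0.67 and -0.52.

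CDC25B was the member higher in EXMC. Its sums were 1.79 to 68.4 CPM (median 23.2) against 0.673 to 35.7 in EPI (median 4.35), higher in 10 of 13 embryos with overlapping ranges. The difference was 1.65 ± 0.52 (adjusted p = 0.0171). The call ended with developmental stage labels only (adjusted p = 0.0630) and without the embryo block (adjusted p = 0.104). In TE the same gene differed by 0.87 and was not called. Its relative CDC25C, read from the identifier, went the other way in EXMC, with a median of 19.9 CPM (5.52 to 45.9) against 45.0 in EPI (36.4 to 110), lower in 13 of 13 embryos (-1.47 ± 0.29, adjusted p = 3.27e-04).

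VE/YE was tested in 7 embryos, and 9 of 30 members were lower and none higher, where 12.9% of all genes tested were lower and 9.66% higher. The median difference was -0.78, against -0.18 for all genes. With sums of at least 10 cells the count was 2, TOP2A and CENPF. ECT2 had 2.22 to 51.8 CPM in VE/YE (median 19.0) and 78.4 to 148 in EPI (median 99.7), with no overlap, and differed by -2.36 ± 0.47 (adjusted p = 8.37e-04). TTK, the kinase that starts checkpoint signalling, did not overlap either, with 4.02 to 44.8 CPM (median 22.4) against 62.0 to 112 (median 77.7), a difference of -1.95 ± 0.44 (adjusted p = 0.00261).

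TOP2A had 183 to 757 CPM in VE/YE (median 223) and 736 to 2342 in EPI (median 949), a difference of -1.84 ± 0.26 (adjusted p = 1.16e-04). CCNB1 had 30.2 to 123 CPM (median 70.0) and 73.9 to 312 (median 178), a difference of -1.39 ± 0.28 (adjusted p = 9.76e-04). CENPF had 94.9 to 509 CPM (median 175) and 277 to 1243 (median 717), a difference of -1.27 ± 0.21 (adjusted p = 1.03e-04). TOP2A, CCNB1 and CENPF were lower in 7 of 7 embryos, although 1 or more VE/YE sums reached into the EPI range. BUB1B (-1.47), the cyclin CCNA2 (-1.21), the spindle protein DLGAP5 (-1.02) and CENPE, the kinetochore motor (-0.83), were the other called members. MKI67 differed by 0.02 and was not called. Of the 10 identifier rows 4 were lower, KIF23 (-1.48), CDC20 (-1.31), AURKA (-1.06) and PLK1 (-1.05), and none higher. CDK1, read from its identifier, was not called (-0.24, adjusted p = 0.650).

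**Figure D2:**
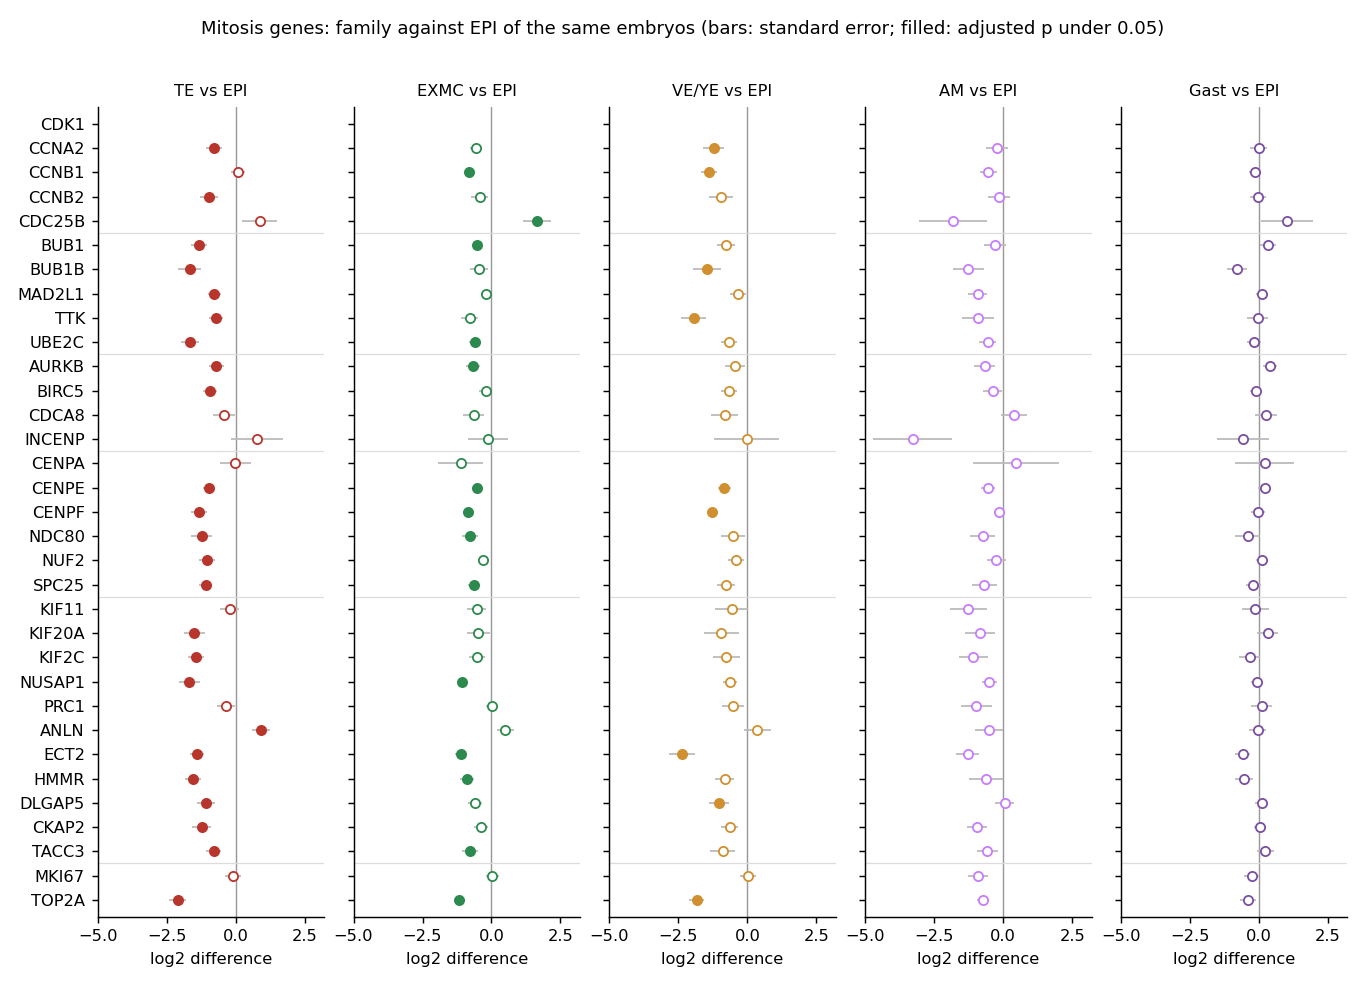
Difference of each tested member between a family and EPI of the same embryos (30 members in VE/YE, 32 in the others; CDK1 has no point; log2, horizontal axis; bars are standard errors; filled points are called; grey lines separate roles). Most TE points lie below 0, from -2.09 for TOP2A to 0.93 for ANLN, and no point is filled for Gast or AM.

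Gast and AM had no member called. In Gast (6 embryos, 32 members tested), edgeR called 0 members, 2 passed an unadjusted p under 0.05 and DESeq2 called 0, where 0.634% of all genes were lower and 0.554% higher. The median of the members was -0.05 with the default scaling and 0.03 with relative log expression scaling, so it has no stable sign, against -0.18 and -0.11 for all genes. In AM (6 embryos, 32 members), edgeR called 0, 9 passed an unadjusted p under 0.05 and DESeq2 called 1, where 1.92% of all genes were lower and 2.71% higher. The median was -0.65, against -0.18 for all genes.

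TOP2A had 314 to 1115 CPM in AM (median 822) and 736 to 2342 in EPI (median 1011), a difference of -0.72 ± 0.21 (adjusted p = 0.0647). MKI67 had 48.2 to 188 CPM in AM (median 86.9) and 120 to 285 in EPI (median 143), a difference of -0.91 ± 0.35 (adjusted p = 0.159), and CCNB1 differed by -0.54 (adjusted p = 0.364). The 3 genes' ranges overlapped, and none passed. Only KIF23, the kinesin of the midbody read from its identifier, was called in AM, with 0 to 58.8 CPM (median 36.4) against 63.8 to 124 (median 95.3). KIF23 did not overlap (-1.79 ± 0.50, adjusted p = 0.0424), and its call was lost without day 12 replicate 1, day 12 replicate 2, day 16 replicate 2 or day 16 replicate 3. In Gast the differences were -0.26 for MKI67, -0.41 for TOP2A and -0.17 for CCNB1.

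PGC had sums from 3 embryos and was not tested. Their TOP2A levels were 401, 872 and 1291 CPM, 2 of them inside and 1 below the span of 629 to 2342 over the 14 EPI sums. Their CCNB1 levels were 20.2, 88.2 and 309 CPM, of which the lowest lay below every EPI sum.

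**Figure D3:**
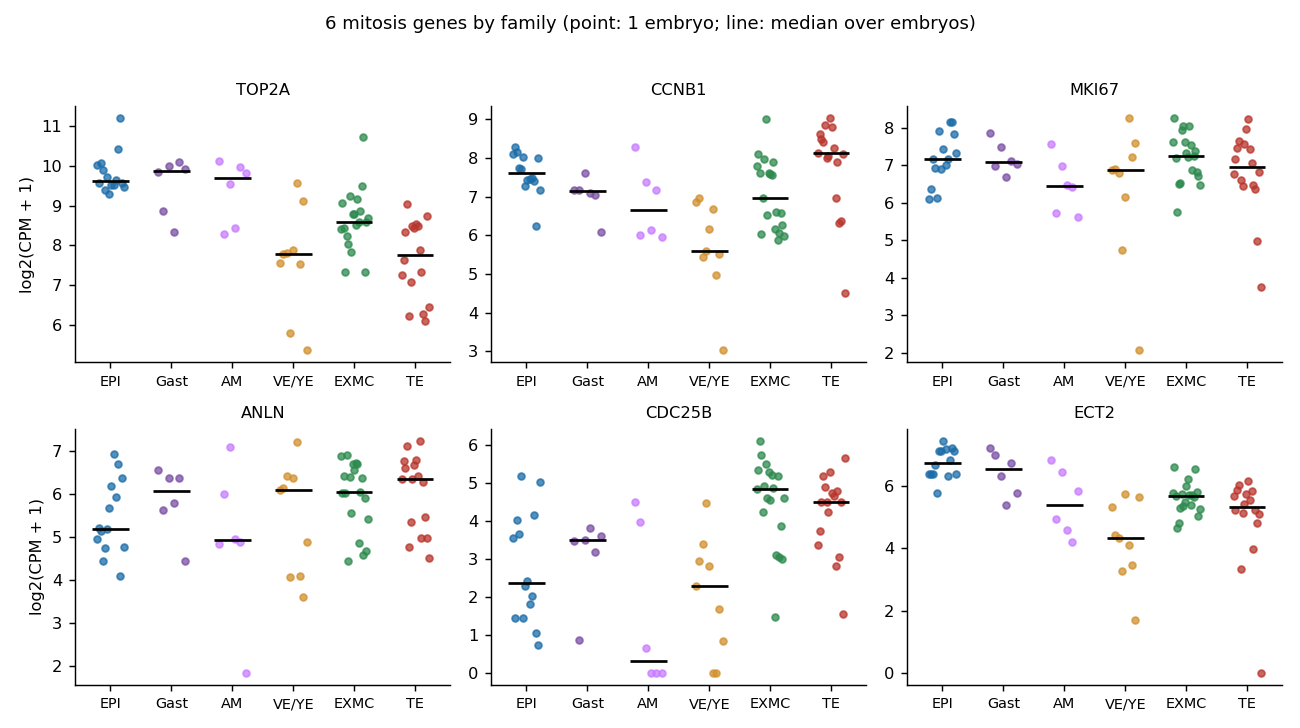
CPM of TOP2A, CCNB1, MKI67, ANLN, CDC25B and ECT2 in the sum of each embryo (points) by family, with the median as a black line. TOP2A sums of TE (median 218) and VE/YE (median 220) lie below most EPI sums (median 777), whereas MKI67 sums of the families overlap.

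The second question is whether the members changed over the days of culture. Day was fitted as a number within each family, so a change is log2 per day, and members are called as above.

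In EXMC 7 of 30 members fell with day over 19 embryos and none rose, where 4.64% of all genes tested fell and 7.15% rose. The median change of the members was -0.12 per day, against 0.02 for all genes, and -0.01 for the members without day 17. The fallers were cyclins and their phosphatase (CCNA2, CCNB1, CDC25B), the checkpoint protein MAD2L1, the passenger proteins AURKB and BIRC5, and TACC3. None of the 5 kinetochore genes tested was among them.

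CCNA2, the cyclin of S phase and mitotic entry, had 156 and 147 CPM at day 11. At day 12 it had 87.5, 58.6, 69.2 and 96.6, at day 13 109, 53.0 and 124, and at day 14 104, 104 and 141. At day 16 it had 46.4, 47.3, 40.0 and 18.2 CPM, and at day 17 59.5, 31.0 and 19.9. All but 1 of the 7 late sums lay below the 12 earlier ones, the exception being 59.5, which lies above 2 of them. The change was -0.34 ± 0.07 per day (adjusted p = 0.00227), and CCNA2 was the member called under every alternative tried.

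CCNB1 had 219 and 272 CPM at day 11, 194, 64.7, 123 and 248 at day 12, 511, 91.2 and 194 at day 13, and 192, 186 and 237 at day 14. It had 70.8, 96.4, 58.0 and 65.4 CPM at day 16 and 94.2, 76.0 and 62.4 at day 17. The late sums lay below 100, where 2 of the 12 earlier sums also lay. The change was -0.34 ± 0.08 per day (adjusted p = 0.00580).

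MAD2L1 had 70.7 to 228 CPM over days 11 to 14 and 35.4 to 118 at days 16 and 17, and fell by 0.28 per day (adjusted p = 0.00912). CDC25B changed by -0.33 ± 0.10 (adjusted p = 0.0276), with day medians of 33.6 CPM at day 11, 40.9 at day 12, 38.2 at day 13, 28.4 at day 14, 7.48 at day 16 and 13.6 at day 17. AURKB (-0.29, adjusted p = 0.0363), TACC3 (-0.25, adjusted p = 0.0233) and BIRC5 (-0.20, adjusted p = 0.0466) completed the 7. The identifier rows PLK1, the kinase that drives spindle assembly (-0.30, adjusted p = 0.0246), and CDC20 (-0.18, adjusted p = 0.0418) fell too. CDK1, read from its identifier, changed by -0.35 per day and was not called (adjusted p = 0.119).

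TOP2A and MKI67 did not pass in EXMC. TOP2A had day medians of 439, 281, 445, 442, 592 and 387 CPM from day 11 to day 17 (0.11 per day, adjusted p = 0.420), and MKI67 250, 90.8, 245, 158, 158 and 103 (-0.13, adjusted p = 0.216). The calls rested on the latest days: without day 16 or without day 17, 1 member fell in place of 7. Without day 17 that was 1 of 30 (3.33%), where 4.25% of all genes fell. The count was 3 without day 17 replicate 2 and 4 without day 17 replicate 3.

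The marker levels moved with these days too. In EXMC cells the summed 6 trophoblast markers were 464 to 3732 CPM at days 11 to 14 and 75.5 to 301 at days 16 and 17, with 6 of 6 lower and CCR7 at a median of 0. The summed mesenchyme markers were 1092 to 17807 and then 11829 to 24801 CPM. Epiblast markers were higher late for 6 of 6 (median sum 102 and then 442 CPM), and so were endoderm markers (median sum 47.8 and then 115 CPM, at most 2416). Their part in the result was not tested.

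In EPI 1 of 30 members rose over 14 embryos and none fell, where 1.94% of all genes rose and 1.87% fell. The median was 0.05 per day, against 0.01 for all genes. The riser was CENPF, with 489 and 277 CPM at day 11, 460, 313 and 263 at day 12, 576 at day 13, and 520 and 761 at day 14. It had 717, 765, 891 and 1243 CPM at day 16 and 703 and 832 at day 17. The late sums were 703 CPM or more, and 1 of the 8 earlier sums was. The change was 0.23 ± 0.05 per day (adjusted p = 0.0149), but CENPF was not called without day 16 or with sums of at least 10 cells. MKI67 (0.20, adjusted p = 0.110), TOP2A (0.04) and CCNB1 (-0.14, adjusted p = 0.173) did not pass. In EPI cells, too, the summed trophoblast markers were lower late, 621 to 3439 CPM in 8 embryos against 44.1 to 405 in 6, with 6 of 6 lower. Of the mesenchyme markers 5 of 6 were higher late (sum 141 to 339 and then 218 to 908 CPM), and of the amnion markers 3 of 4 (9.66 to 115 and then 101 to 244 CPM). Their part in the CENPF result was not tested.

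In TE edgeR called 0 of 32 members over 16 embryos, 7 passed an unadjusted p under 0.05 and DESeq2 called 3, where 6.78% of all genes fell and 8.07% rose. The median was -0.11 per day with day 17 and 0.01 without it, against -0.01 and 0.0015 for all genes. The identifier row PLK1 fell by 0.31 per day (adjusted p = 0.0407), a call that was lost without day 17. CDK1, read from its identifier, changed by -0.33 per day and was not called (adjusted p = 0.0943). In VE/YE edgeR called 0 of 29 members over 9 embryos, 1 passed an unadjusted p under 0.05 and DESeq2 called 0, where 0.0132% of all genes fell and 0.132% rose. The median was 0.06 per day, against 0.02 for all genes.

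**Figure D4:**
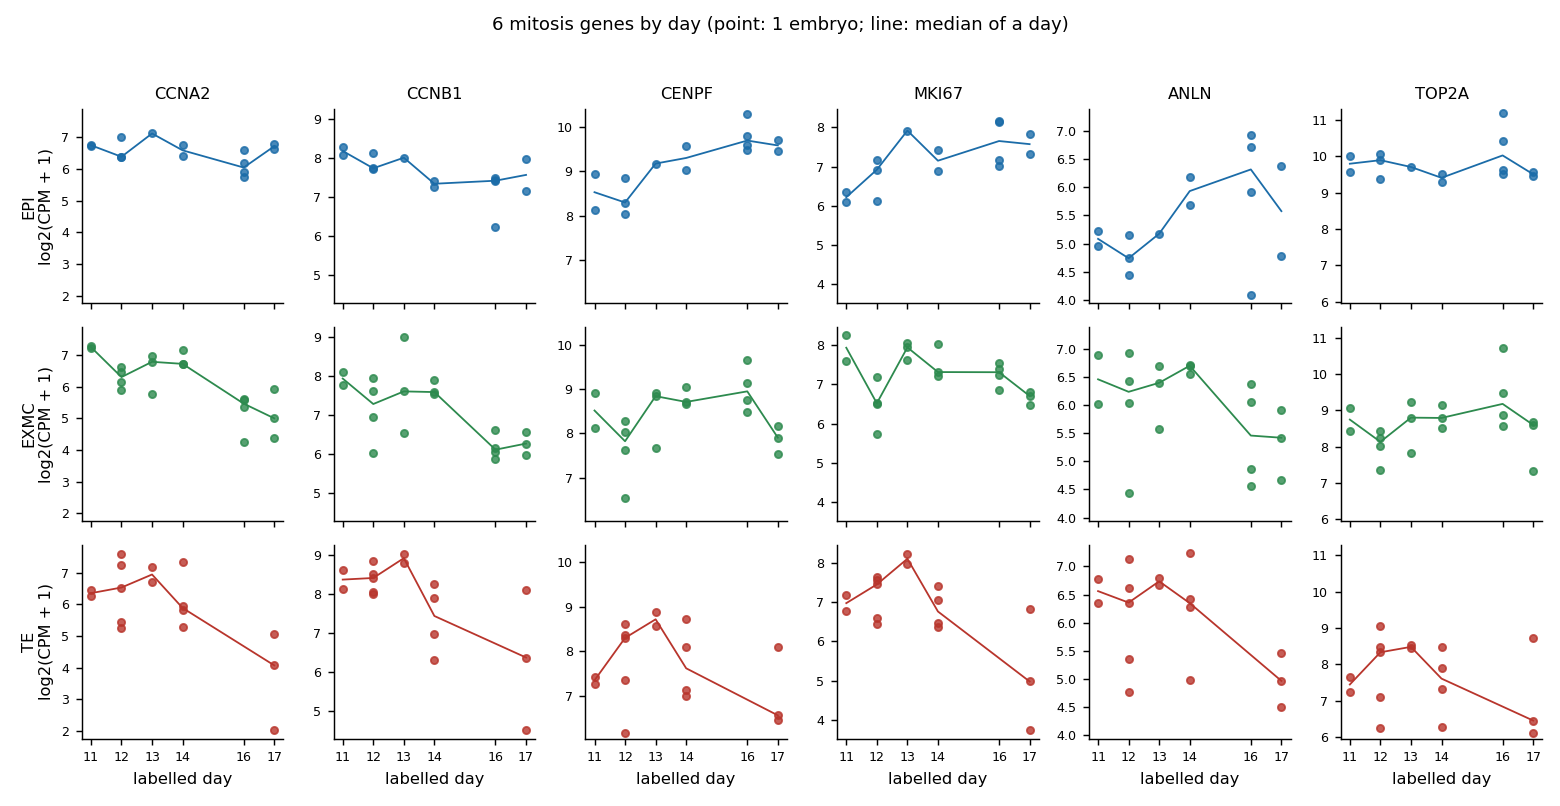
Log2(CPM + 1) of CCNA2, CCNB1, CENPF, MKI67, ANLN and TOP2A per embryo (points) against day in EPI, EXMC and TE, with lines through the day medians. CCNA2 and CCNB1 of EXMC are lower at days 16 and 17 than at day 14, and CENPF of EPI is highest at day 16.

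Whether the change with day differed between EPI, EXMC and TE was tested in 1 model over 19 embryos with the embryo as a block. Of 32 members 2 were called, MKI67 and ANLN, where 6.24% of all genes were called, so the members' share was near that of all genes. MKI67 had day medians of 74.0, 120, 241, 144, 212 and 193 CPM in EPI from day 11 to day 17. In TE it had 126, 174, 276 and 110 CPM at days 11 to 14 and 30.5 at day 17. The change per day was lower in EXMC than in EPI by 0.28 and in TE than in EPI by 0.47 (adjusted p = 0.0194 for both terms together).

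ANLN had day medians of 33.1, 25.7, 35.1, 61.0, 81.7 and 54.3 CPM in EPI and 90.8, 75, 83.1, 103, 46.8 and 41.8 in EXMC. In TE it had 94.5, 81.0, 106 and 80.6 CPM at days 11 to 14 and 30.3 at day 17. By its median EPI was lowest of the 3 families at day 11, highest of the 3 at day 17 and above EXMC at day 16, where TE had no sum. The changes per day were lower than in EPI by 0.38 in EXMC and 0.46 in TE (adjusted p = 0.0303). Neither call held without day 17, without day 16, with relative log expression scaling or after thinning. Without day 17 replicate 1 alone the count was 0. ANLN was lost without day 11 replicate 1, day 12 replicate 1, day 12 replicate 2, day 16 replicate 1 or day 16 replicate 3, which left 1.

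Within a family, cells with many counts of 1 member tended to have many of another, most in EXMC and least in EPI. The median Spearman rho over pairs of members was 0.38 in EXMC (382 thinned cells, 435 pairs, 58 over 0.5), 0.30 in TE (316 cells, 435 pairs, 25 over 0.5) and 0.13 in EPI (247 cells, 406 pairs, 2 over 0.5). The highest pair was TOP2A with CENPF in TE (0.72) and in EXMC (0.69), and TOP2A with NUSAP1 in EPI (0.55). Without day 17 the TE values were a median of 0.30, 25 pairs over 0.5, and 0.71 for TOP2A with CENPF. The cells share embryos and libraries, and these values are descriptions.

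Outside the list, the genes whose levels over the 73 sums were most like the mean of the members were CKS2, a small subunit that binds CDK1 (Pearson r 0.86), and KPNA2, an importin (0.85). TPX2, which builds spindle microtubules, CDCA3, PTTG1 (securin, the brake on sister separation), CDCA2, the mitochondrial chaperone HSPD1, RUVBL1, the kinesin KIF15 and the GTPase RAN followed with r of 0.75 to 0.68. The median r of the 16211 genes compared was 0.06. Of these 10, 6 stand in a wider list of mitosis genes that holds none of the members. The sums share embryos and depth.

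That wider list (52 genes) and lists for transcription of the programme, DNA replication, brakes of the cell cycle and D cyclins, which drive the cycle, were read in the same fits. In TE against EPI, where 22.7% of all genes were lower and 20.9% higher, 20 of 52 further mitosis genes were lower and 1, WEE1, the kinase that inhibits CDK1, was higher (2.58). The lower ones included FAM64A (-3.43), CDCA2 (-1.93) and CIT, the citron kinase of cytokinesis (-1.80). Of 19 transcription genes 5 were lower and 5 higher, among them MYBL2, which activates G2 and mitosis genes (-2.22 ± 0.25), and the repressor E2F8 (1.79). FOXM1, another activator of mitosis genes, was not called in TE, EXMC or VE/YE. Without day 17, where 21.4% of all genes were lower and 23.9% higher, 17 further mitosis genes were lower and 1 higher, and 3 transcription genes were lower and 6 higher. WEE1 (3.02), FAM64A (-3.27), CDCA2 (-1.54), CIT (-1.58), MYBL2 (-2.15) and E2F8 (1.82) were called there too.

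Replication genes differed in both directions in TE, with 9 of 23 lower, such as GINS2 (-1.86) and MCM2 (-1.68) of the replicative helicase, and 3 higher. Cyclins E2 and E1, which drive entry into S phase, were higher (CCNE2 3.50, CCNE1 3.37). Of 10 brakes 3 were higher, CDKN1C (p57, 4.33 ± 0.27), CDKN1A (p21, 2.19) and GADD45A (1.92), and none lower. Of the 3 D cyclins CCND3 was higher (1.79) and CCND2 lower (-3.83). Without day 17 again 9 replication genes were lower and 3 higher, 5 of 8 brakes were higher, and CCND3 was higher and 2 D cyclins lower. The genes named in this paragraph were called there too, CDKN1C at 4.59, GADD45A at 1.58 and CCND2 at -4.12.

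In EXMC against EPI, where 15.5% of all genes were lower and 14.2% higher, 13 of 52 further mitosis genes were lower and none higher, 4 of 20 transcription genes were lower, MYBL2 (-1.25) among them, and 1 higher, 8 of 23 replication genes were lower and 3 higher (CCNE2 2.61), and 3 of 10 brakes were higher and 1, CDKN2D (-2.38), lower. The higher brakes were CDKN2B (p15, 3.57), CDKN1A (2.69) and GADD45A (2.42). Of the 3 D cyclins CCND1 was higher (1.23). In VE/YE, where 12.9% of all genes were lower and 9.66% higher, 9 of 50 further mitosis genes, 5 of 23 replication genes and 0 of 19 transcription genes were lower, RRM1 of the replication list was higher (2.93), and 3 of 8 brakes were higher, among them GADD45A (3.27). The D cyclin CCND2 was lower there (-4.28). In AM, where 1.92% of all genes were lower, 1 of 52 genes of the wider mitosis list (1.92%) was called. It was UBE2S, a ubiquitin enzyme of the anaphase-promoting complex (-1.46), and the share was that of all genes. In Gast, where 0.634% of all genes were lower, 1 of 52 was called, CIT (-1.61). The UBE2S call was lost without day 16 replicate 2 or day 16 replicate 3, and the CIT call without any 1 of the 6 embryos.

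Over the days in EXMC, where 4.64% of all genes fell and 7.15% rose, 9 of 23 replication genes fell, such as GINS1 (-0.43 per day) and PCNA, the sliding clamp (-0.35), and none rose. Of 52 further mitosis genes 5 fell, including PTTG1 (-0.39), and 1, STMN1, rose. Of 9 brakes 1, CDKN2B (0.66), rose in EXMC, as did the D cyclin CCND2 (0.63). In EPI, where 1.87% of all genes fell and 1.94% rose, SGOL1, the guardian of centromeric cohesion, rose (0.34) and MYBL2 fell (-0.25). The D cyclin CCND2 rose in EPI too (0.43), whereas the D cyclin CCND1 (-0.46) and the replication gene GINS1 (-0.28) fell. In TE, where 6.78% of all genes fell and 8.07% rose, 4 of 52 further mitosis genes fell and 1 rose, a share near that of all genes, and 4 of 23 replication genes fell. Of 9 brakes CDKN2A (0.66) rose and CDKN1A (-0.54) and FZR1 (-0.48) fell, and of the D cyclins CCND2 (0.62) rose and CCND3 (-0.33) fell. Without day 17 edgeR called 0 of the 105 genes of these lists tested in TE, with 19 at an unadjusted p under 0.05, where 0.0238% of all genes fell and 0.111% rose. In VE/YE no gene of the wider lists was called over the days.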

How the data were processed

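Single cells of 21 embryos were measured by barcoded 3' RNA-seq. The values are counts per gene and cell in a table deposited by the authors, who also deposited each cell's annotation and day; reads were aligned with STAR, per the submitters' processing notes. Counting tool, genome build and use of molecular identifiers: not given in the sources used here. Gene coordinates and promoter sequences were not used. The listed genes, roles, wider gene lists and tests were chosen with earlier results of these data known.

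The 12 annotations were joined into 7 families, and counts were summed per embryo and family where at least 5 cells were present. Sums were tested with edgeR 4.0.16 in R 4.3.3 (quasi-likelihood, filterByExpr, TMM scaling, Benjamini-Hochberg adjustment over all genes tested, adjusted p under 0.05). Day entered as a number. Families were compared with EPI of the same embryos with the embryo as a block, so the pairing comes from the embryo and not from a replicate number. Each embryo is a separate sample, and replicate numbers only name embryos. Of 16890 locus identifiers, 3362 have a symbol in the RefSeq table (assembly T2T-MFA8v1.1). Cells were thinned to 20000 counts with Python 3.11.15, and shares of cells carry no test. No doublet caller was run, since cells were picked singly, and 0 cells had identical counts.

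Values are given for MKI67, TOP2A, CCNB1 and up to 8 called members with the largest absolute change in each comparison. Other genes are given by counts, and wider-list genes named beyond that were chosen after their values were seen. Alternatives were DESeq2 1.42.0, relative log expression scaling, no filter, sums of at least 10 cells, thinned cells, developmental stage labels only, label type as a covariate, no block, without day 16 and without each embryo in turn. Fits without day 17 were added after seeing the data.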

Additional observations from a re-analysis of the deposited data

Results flagged for a closer look

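In 42 groups of 4 or 5 embryos (1 gene in 1 family at 1 day), 3 had an embryo far from the others. Chance gives about 1 such group in 20. TOP2A in Gast at day 16 was 324 CPM in replicate 2 and 956 to 1082 CPM in the other 3 embryos. CCNB1 in EPI at day 16 was 73.9 CPM in replicate 4 and 169 to 178 CPM in the others. CDC25B, a low gene, was 16.9 CPM in EPI of day 16 replicate 3 and 1.06 to 3.07 CPM in the others.

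The change with day differed between EPI, EXMC and TE for MKI67 (edgeR adjusted p = 0.0194) and for ANLN (adjusted p = 0.0303). Both calls were lost without day 17, when the trophoblast markers of TE were low, and the part of that in the result was not tested.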

How the results depend on the processing

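Without the 3 embryos of day 17, members falling with day in EXMC numbered 1 in place of 7, where 4.25% of all genes fell. In the same setting, members lower in EXMC than in EPI numbered 7 in place of 13, where 17.3% of all genes were lower. Members differing in day by family numbered 0 in place of 2. Members falling in EPI numbered 1 in place of 0, where 1.99% of all genes fell. Without day 16 the EXMC day count was 1, the EPI riser was lost (0), EXMC against EPI had 8 lower and 2 higher in place of 1, and day by family had 0. With developmental stage labels only, EXMC had 3 falling with day, 5 lower and 0 higher than EPI, AM 2 lower in place of 0, and day by family 0. After thinning, EXMC had 4 falling, AM 1 lower and day by family 0. With sums of at least 10 cells, EXMC had 4 falling, EPI 0 rising and VE/YE 2 lower in place of 9. With no filter, EPI had 2 rising, AM 3 lower and day by family 4. DESeq2 gave 3 falling in TE and 1 lower in AM, each in place of 0. Label type as a covariate gave 1 falling in TE. Relative log expression scaling gave 0 for day by family and moved the median of all genes by less than 0.1. The cause of these differences was not tested.

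Leaving out 1 embryo at a time gave 1 to 2 rising in EPI (2 without day 12 replicate 3), 3 to 7 falling in EXMC, 0 to 3 falling in TE (3 without day 12 replicate 3, 1 without day 14 replicate 1 or day 17 replicate 2), 0 to 2 lower in AM (2 without day 12 replicate 1, 1 without day 16 replicate 1), 6 to 10 lower in VE/YE, 6 to 15 lower in EXMC, 18 to 22 lower and 0 to 1 higher in TE, and 0 to 2 in day by family. For the family and day by family fits these reused the dispersion trend of all embryos.

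Without the embryo block, EXMC had 9 lower and 0 higher, TE 21 lower and 1 higher, VE/YE 6 lower, Gast and AM 0, and day by family 2. For the fits on day, no paired analysis was possible because each embryo has 1 day. Fits without day 16 could not be made for the VE/YE day, Gast and AM comparisons, nor sums of at least 10 cells or the label covariate for VE/YE day. Members with few counts, such as INCENP and CENPA, limit what depth can show.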
